A study of Bos taurus with 4 samples.

Results

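The cold-inducible and cold shock domain RNA-binding proteins were described at the transcript level in bovine blastocysts that had been vitrified as morulae. The genes were taken by name: CIRBP, RBM3, CSDA, YBX1, YBX2, LIN28A, LIN28B and CARHSP1. Of these, 7 were listed as symbols on the array, with 15 probes among 43794, and 12 of the 15 probes exceeded background often enough to be tested. LIN28A was not listed under that name, but 1 tested probe carried its older symbol LIN28 and is described with the others. CSDA is the older symbol of YBX3. The 2 groups were pools of expanded blastocysts grown from vitrified morulae and pools grown from control morulae that were never frozen, 4 pools of each, with 7 embryos per pool and collection at day 7 after fertilization according to the labels. The methods differ from the labels in allowing smaller pools and in a later collection of the morulae, so the age of the blastocysts is not settled. Compact morulae came from slaughterhouse oocytes that were matured, fertilized with the semen of a single bull and cultured in vitro. Vitrified morulae were equilibrated with ethylene glycol and dimethyl sulfoxide, plunged into liquid nitrogen on a cryotop, stored, warmed and cultured on, whereas control morulae stayed in culture. The cryopreservation label reads "Yes" for the control pools too, and they were taken as unfrozen from their treatment label and the study's methods. Each of the 4 two-colour arrays held 1 vitrified and 1 control pool. The vitrified pool carried Cy5 on arrays 1 and 2 and Cy3 on arrays 3 and 4.

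Most vertebrate cells make less protein when they are cooled mildly, but CIRBP and RBM3 are made in larger amounts. Both are small proteins with an RNA recognition motif and a glycine-rich tail that bind messenger RNAs and affect their stability and translation. The other genes encode proteins with a cold shock domain, a nucleic acid binding fold related to that of the bacterial cold shock proteins. Despite the name, these proteins are known mainly for packaging messenger RNA (the Y-box proteins), for blocking maturation of the let-7 microRNAs (LIN28A and LIN28B) and for messenger RNA stability (CARHSP1), rather than for induction by cold. In germ cells and early embryos, where maternal messages are stored and later cleared, such proteins are abundant. The embryos measured here had been warmed and cultured to the expanded blastocyst stage, so the arrays report transcript levels after recovery and not in the cold.

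A ratio below is the log2 ratio of vitrified over control on 1 array, and a level is the normalized log2 signal of a pool. Levels were not compared between probes. The fold change of a probe is the limma estimate over the 4 arrays with a dye term, given on the log2 scale with its standard error (SE). In each pool, 60.1% to 67.3% of the 43794 probes exceeded background, and 28944 probes entered the test. Ratios of all probes correlated weakly between arrays (r from -0.15 to 0.18), and they spread most on array 3 (SD over probes 0.54, against 0.32 to 0.44 on the others). Each array joined 1 pool of either group, and the methods give the pools as separate cycles of fertilization and cryopreservation, but which cycle an array came from is not stated. In pooled embryos, fewer cells of a type and less RNA per cell cannot be told apart.

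None of the 12 tested probes of the group passed an adjusted p under 0.05 (0.569 to 0.993, limma with Benjamini-Hochberg). Of all tested probes, 0% passed it. At an unadjusted p under 0.05, 2 of the 12 were lower in vitrified blastocysts (1 of CIRBP and 1 of CARHSP1) and 0 were higher, against 4.36% lower and 3.31% higher among all probes. None reached the threshold of the study, which asks for a 2-fold change in addition to that p and which 0.149% of all probes reached as lower and 0.0726% as higher. The same 2 probes were the ones with a ratio under 0 on all 4 arrays, a pattern found in 7.31% of all probes. The fitted fold change was under 0 for 10 of the 12 and for 48.9% of all probes, with medians of -0.05 for the group and 0.006 for all probes. Several of these probes share a gene and are not independent. The dye term had an unadjusted p under 0.05 for 0 of the 12 and for 8.17% of all probes.

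**Figure D1:**
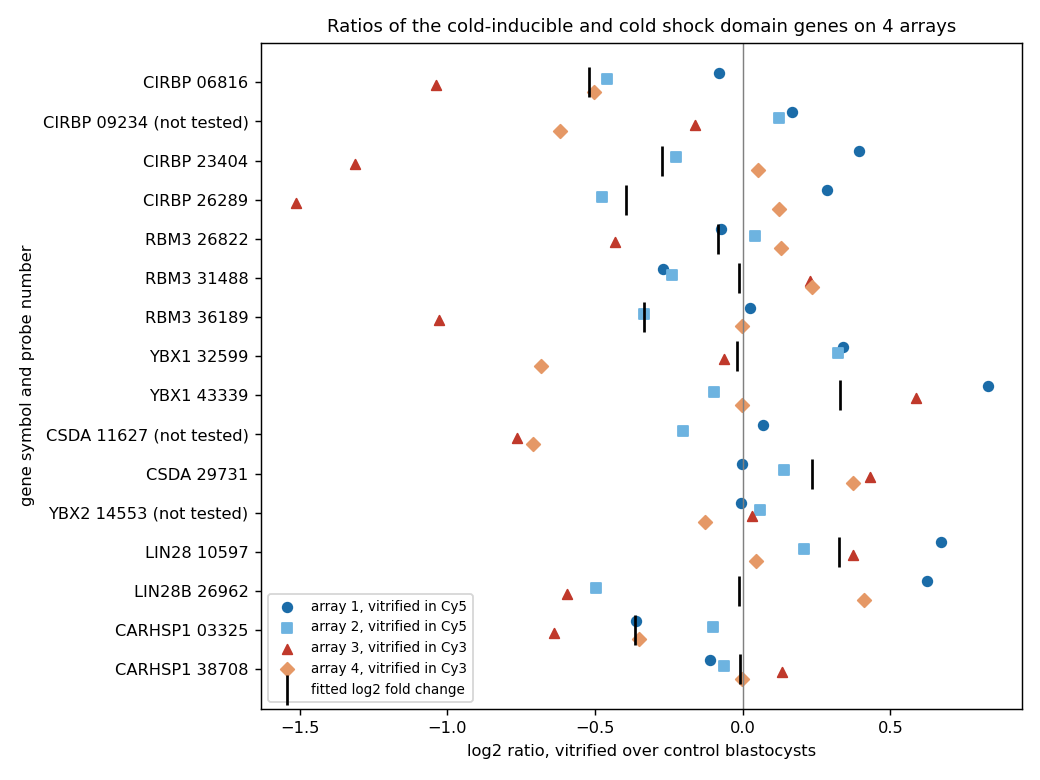
Log2 ratios (x axis) of vitrified over control blastocysts for each probe (y axis), with 1 symbol per array, blue where the vitrified pool carried Cy5 and red or orange where it carried Cy3, and a black bar for the fitted fold change of tested probes. The probes CIRBP EMBV3_06816 and CARHSP1 EMBV3_03325 lie left of 0 on all 4 arrays, the LIN28 probe lies right of 0 on all 4, and array 3 holds the lowest ratio of the plot (-1.51).

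The arrays differed in how these probes behaved. The median ratio of the 12 was 0.01 on array 1 and 0.03 on array 4, where 6 were lower and 6 higher on each. It was -0.16 on array 2, with 9 lower and 3 higher, and -0.51 on array 3, with 8 lower and 4 higher. Low values were thus found mainly on array 3, which is also the array whose ratios spread most over all probes.

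CIRBP, the cold-inducible RNA-binding protein, which moves to stress granules under several kinds of stress, was covered by 4 probes. The brightest, EMBV3_06816, had background-subtracted signals of 9694, 9261, 10618 and 11904 in vitrified pools on arrays 1 to 4, against 12732, 14575, 17865 and 13539 in control pools. Its normalized levels were 13.41, 13.27, 13.24 and 13.35 in vitrified pools, against 13.49, 13.73, 14.27 and 13.85 in control pools. All 4 vitrified pools lay below all 4 control pools, with little spread among the vitrified pools (SD 0.08) and more among the control pools (SD 0.33). Such a separation with the vitrified pools below was seen in 1 of the 12 tested probes and in 1.69% of all probes. The ratios were -0.08, -0.46, -1.04 and -0.50, and the fitted fold change was -0.52 (SE 0.16, 95% interval -0.89 to -0.15), a level 0.697 times that of the control pools. The unadjusted p was 0.0116 and the adjusted p 0.569 (limma). With array 2 left out, the unadjusted p was 0.0751, and with array 3 left out it was 0.0704. Over the 4 fits that each leave out 1 array, the fold change ranged from -0.65 to -0.39.

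The other CIRBP probes did not show the same pattern on each array. EMBV3_23404 had ratios of 0.39, -0.22, -1.31 and 0.05 and a fold change of -0.27 (SE 0.23, unadjusted p 0.265 from limma). EMBV3_26289 had ratios of 0.29, -0.48, -1.51 and 0.12 and a fold change of -0.39 (SE 0.26, unadjusted p 0.163 from limma). Both probes were lowest on array 3, where the control pool stood high. There the control levels were 9.89 for EMBV3_23404 and 9.67 for EMBV3_26289, against 8.32 to 8.69 and 7.87 to 8.34 in the control pools of the other arrays. Without array 3 both fold changes turned to just above 0 (0.07 and 0.01). Levels of these 2 probes ran nearly in parallel over the 8 pools (r = 0.98), and each followed EMBV3_06816 less closely (r = 0.75 and 0.81). The mean over the 3 tested CIRBP probes was -0.40 (unadjusted p 0.105 from limma). EMBV3_09234 exceeded background in 1 of 8 readings, in a control pool, and was not tested.

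**Figure D2:**
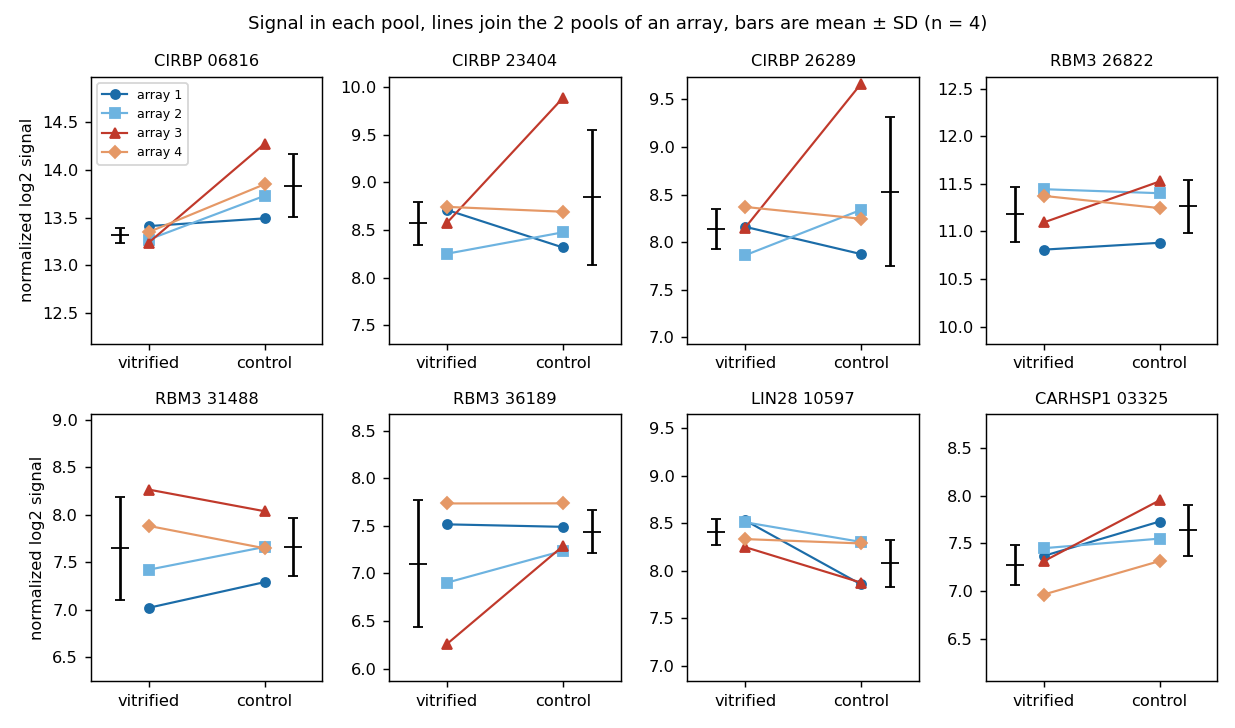
Normalized log2 signal (y axis) of 8 probes in the vitrified and control pool of each array (x axis), with lines joining the 2 pools of an array and bars for mean ± SD (n = 4). Each panel has its own range of levels. For CIRBP EMBV3_06816 the vitrified pools lie between 13.24 and 13.41 and the control pools between 13.49 and 14.27, while for the other probes the groups overlap.

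RBM3, the X-linked relative of CIRBP, known for its part in protein synthesis and synapse survival in the cooled mouse brain, gave no probe past a threshold. The brightest of its 3 probes, EMBV3_26822, had levels of 10.81, 11.44, 11.09 and 11.37 in vitrified pools, against 10.88, 11.40, 11.53 and 11.25 in control pools. Its ratios were -0.07, 0.04, -0.43 and 0.13. The groups overlapped almost fully, with a fold change of -0.08 (SE 0.16, unadjusted p 0.615 from limma, 95% interval -0.44 to 0.28). EMBV3_31488 had ratios of -0.27, -0.24, 0.23 and 0.24, so that it was lower where the vitrified pool carried Cy5 and higher where it carried Cy3. Its fold change over the 2 orientations was -0.01 (SE 0.14). EMBV3_36189 was dim, above background in 2 vitrified and 4 control pools. Its levels were 7.52, 6.90, 6.26 and 7.74 in vitrified pools, against 7.49, 7.24, 7.29 and 7.74 in control pools. The 2 vitrified pools on arrays 1 and 4 matched their control pools and those on arrays 2 and 3 lay lower. These lower pools were the 2 vitrified pools not above background, so the size of their difference is uncertain. The fold change was -0.33 (SE 0.19, unadjusted p 0.119 from limma). Without array 4, a fit that keeps both of these dim readings, the same probe had a fold change of -0.59 (unadjusted p 0.0112 from limma). The 3 RBM3 probes did not track each other over the 8 pools (r from -0.44 to 0.62).

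The Y-box proteins coat messenger RNA in the cytoplasm and can hold it untranslated. YBX1, the member found in most tissues, was read by 2 probes, of which the brighter had background-subtracted signals of 36468, 31626, 33352 and 22242 in vitrified pools, against 28401, 24715, 29858 and 34434 in control pools. The ratios of this probe, EMBV3_32599, were 0.34, 0.32, -0.06 and -0.68. Arrays 1 and 2 were higher and array 4 lower, and the fold change was -0.02 (SE 0.16, unadjusted p 0.906 from limma), with an unadjusted p of 0.0583 for the dye term. The other YBX1 probe, EMBV3_43339, had ratios of 0.83, -0.10, 0.59 and -0.0034 and a fold change of 0.33 (SE 0.19, unadjusted p 0.126 from limma). It was high on arrays 1 and 3, which carried opposite dyes, and level on the others. Without array 2 its fold change was 0.56, with an unadjusted p of 0.0259. The 2 probes were unrelated over the 8 pools (r = -0.01), and since mammalian genomes hold processed copies of YBX1, a probe may also read these.

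CSDA (YBX3), a Y-box protein of muscle, testis and epithelia that also binds the tight junction protein ZO-1, had 1 tested probe, EMBV3_29731. Its levels were 6.97, 7.69, 7.54 and 7.57 in vitrified pools, against 6.97, 7.55, 7.11 and 7.20 in control pools. The pools were level on array 1 and the vitrified pool was higher on the others, with a fold change of 0.24 (SE 0.15, unadjusted p 0.14 from limma). The other CSDA probe, EMBV3_11627, ran the other way (0.07, -0.20, -0.76 and -0.71), but it was above background only in 2 control pools and was not tested. In a fit with no filter on dim probes, it had a fold change of -0.40 (unadjusted p 0.0142, adjusted p 0.665, limma) and a dye term at an unadjusted p of 0.0313, with all 4 vitrified readings not above background. YBX2, the germ cell Y-box protein that stabilizes stored messages in mouse oocytes and spermatids, was above background in 1 vitrified and 1 control pool and was not tested. Its ratios lay between -0.13 and 0.06.

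LIN28A and LIN28B bind let-7 precursors through a cold shock domain and a pair of zinc knuckles and keep these microRNAs low in early embryos and stem cells. The LIN28 probe, EMBV3_10597, had levels of 8.53, 8.51, 8.25 and 8.33 in vitrified pools, against 7.86, 8.30, 7.87 and 8.29 in control pools. The vitrified pool was higher on all 4 arrays (ratios 0.67, 0.21, 0.37 and 0.05), as in 7.12% of all probes, but its groups overlapped. The fold change was 0.32 (SE 0.16, 95% interval -0.04 to 0.69), with an unadjusted p of 0.0726 and an adjusted p of 0.681 (limma). Leaving out each array in turn gave 0.21 to 0.44. LIN28B, on EMBV3_26962, had ratios of 0.62, -0.50, -0.59 and 0.41. The vitrified pool was thus higher on arrays 1 and 4 and lower on arrays 2 and 3, and these opposite values gave a fold change of -0.01 (SE 0.23, 95% interval -0.54 to 0.51). Its sign followed the array left out (-0.29 to 0.27).

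CARHSP1, a phosphoprotein with a cold shock domain that stabilizes the TNF message in mouse macrophages, was covered by 2 probes. EMBV3_03325 had levels of 7.37, 7.45, 7.31 and 6.96 in vitrified pools, against 7.73, 7.55, 7.95 and 7.31 in control pools. This probe was dim, though above background in all 8 readings. Its background-subtracted signals were 96 to 339 in vitrified and 105 to 259 in control pools. Medians over all probes were 81 to 353 and 98 to 216. Each vitrified pool was below the control pool of its own array, by ratios of -0.36, -0.10, -0.64 and -0.35, although the groups overlapped. The fold change was -0.36 (SE 0.15, 95% interval -0.71 to -0.02), with an unadjusted p of 0.0403 and an adjusted p of 0.638 (limma). The unadjusted p was 0.183, 0.0651 and 0.15 without array 1, 2 and 3, and 0.0422 without array 4. It was 0.0534 with no background subtraction and 0.0533 when only probes above background in all 8 readings were fitted. The second probe, EMBV3_38708, was above background in 3 pools of either group and had ratios between -0.11 and 0.13, with a fold change of -0.01 (SE 0.15). Taken over both probes, CARHSP1 had a fold change of -0.19 (unadjusted p 0.204 from limma).

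**Figure D3:**
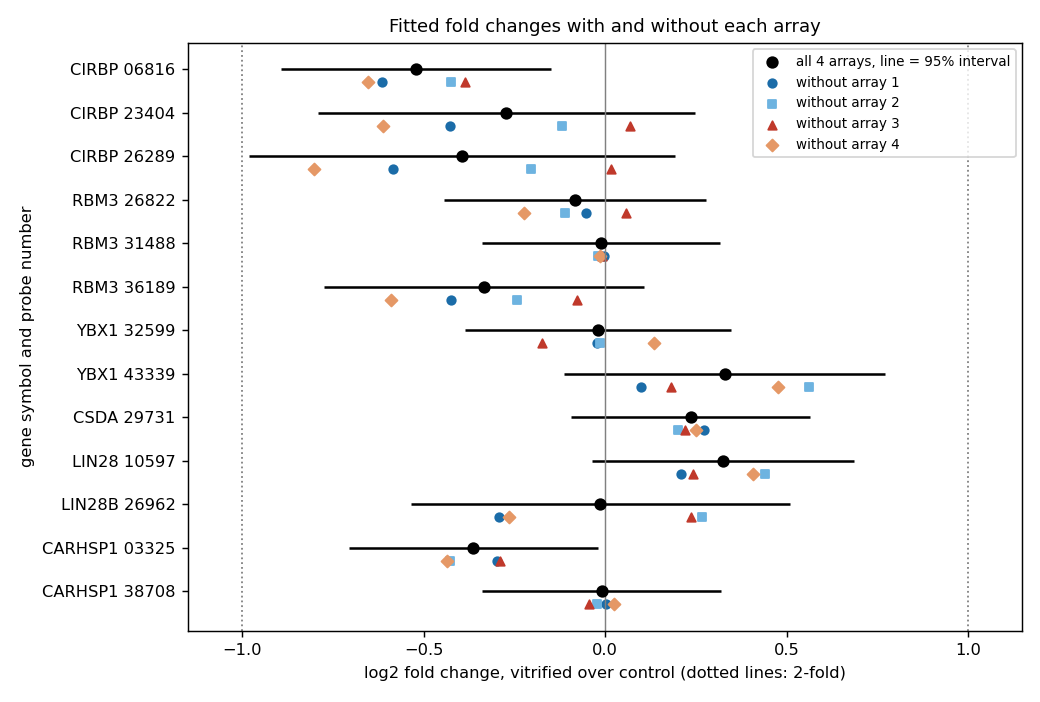
Fitted log2 fold change, vitrified over control (x axis), of the 13 tested probes (y axis), with black points and 95% interval lines for all 4 arrays and coloured symbols for fits without 1 array. All 13 intervals lie inside the dotted 2-fold lines, and the interval leaves out 0 for CIRBP EMBV3_06816 and CARHSP1 EMBV3_03325.

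The unadjusted 95% intervals of the 13 tested probes, LIN28 included, all lay within a 2-fold change in either direction, from -0.98 to 0.77. SEs were between 0.14 and 0.26, against a median of 0.16 over all probes. At the unadjusted threshold, 5 of the 12 probes passed as lower without array 4, 1 without array 1, and 0 without array 2 or array 3 (limma). The share of all probes that passed as lower moved in the same way, with 8.1% without array 4, 4.83% without array 1, 2.23% without array 2 and 2.05% without array 3. CIRBP, RBM3 and YBX1 were also set against the 11416 other genes by the correlation of their brightest probes' levels over the 8 pools, after centring each dye. The difference between the groups stayed in these levels and enters r, so a fold change like that of CIRBP is not separate evidence. The closest to CIRBP were LEMD2, a protein of the inner nuclear membrane (r = 0.99, fold change -0.55), DHRSX, a dehydrogenase (0.98, -0.40), and PJA2, a ubiquitin ligase (0.98, -0.44). RBM3 was most like ATP11A, a phospholipid flippase (0.99), SRGAP2 (0.98), and PTPRE, a tyrosine phosphatase (0.98). YBX1 was most like ZNF500, a zinc finger protein (0.99), C11H9ORF116 (0.98) and CDHR1, a cadherin-related protein (0.97). With 8 pools on 4 shared arrays, high values are common, and 1 in 100 genes had r above 0.90 with CIRBP and above 0.84 with RBM3 or YBX1.

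Genes with related roles were read by their brightest probe. At an unadjusted p under 0.05, 5.3% of all genes were lower and 3.49% higher, with a median fold change of 0.0023. Of 10 tested genes of other cold shock domain or cold-linked RNA-binding proteins, 0 passed in either direction, with a median of 0.09. SRSF5, a splicing factor, had the smallest p of this list (fold change 0.31, unadjusted p 0.095 from limma), with ratios of 0.22, 0.91, 0.01 and 0.10. DIS3L, a cytoplasmic exosome nuclease with a cold shock domain, had a fold change of 0.38 (unadjusted p 0.105 from limma). Of 10 tested genes that lie upstream or downstream of CIRBP and RBM3, 0 passed, with a median of -0.0063. The 2 with the smallest p were ATR, a DNA damage kinase (fold change 0.24), and CREB1, a transcription factor (-0.25).

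In the LIN28 and let-7 axis, 12 of 14 genes on the array were tested. Of these, 1 was lower and 1 higher, with a median of -0.10. MYC, a growth regulator whose message is a let-7 target, had ratios of -0.69, -1.18, -1.60 and 0.06. Arrays 1 to 3 were lower and array 4 was not, for a fold change of -0.85 (SE 0.25, unadjusted p 0.00816, adjusted p 0.538, limma). Without array 4, MYC had a fold change of -1.27 and an adjusted p of 0.0307 (limma), the only gene of the 6 lists to pass in a fit that left out 1 array. In that fit 182 of all 28944 tested probes passed, against 0 with all 4 arrays. Array 3, alone there in its dye orientation, weighed as much as arrays 1 and 2 together. TUT7, which adds uridines to let-7 precursors, had ratios of 1.12, 0.81, 0.46 and -0.35 and a fold change of 0.51 (unadjusted p 0.0187, limma), with a dye term at an unadjusted p of 0.0302.

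**Figure D4:**
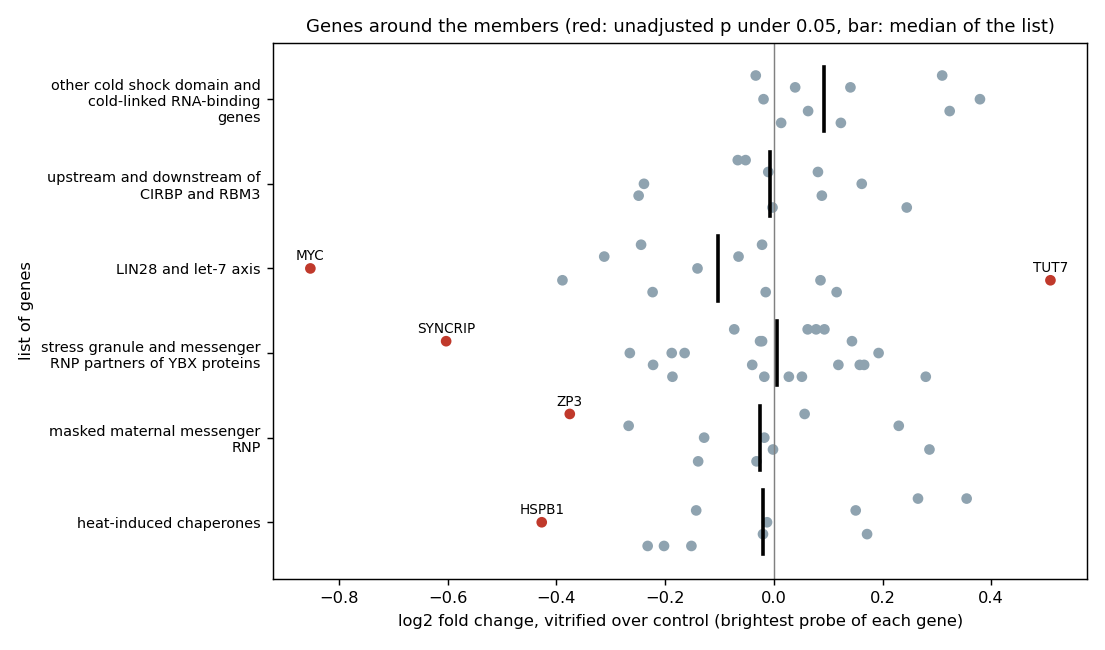
Log2 fold change, vitrified over control (x axis), of each gene's brightest probe in 6 lists (y axis), with red points for an unadjusted p under 0.05 and bars for list medians. The medians lie between -0.10 and 0.09, with MYC (-0.85), SYNCRIP (-0.60), HSPB1 (-0.43) and ZP3 (-0.38) lower and TUT7 (0.51) higher.

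Of 22 stress granule and messenger RNA-protein partners of the Y-box proteins, 1 was lower and 0 higher, with a median of 0.0051. SYNCRIP, a messenger RNA-binding partner of YBX1, was lower on all 4 arrays (-0.57, -0.18, -0.81 and -0.85), with a fold change of -0.60 (SE 0.15, unadjusted p 0.00336, adjusted p 0.439, limma). Its other tested probe had a fold change of 0.03. G3BP2, a core protein of stress granules, had a fold change of -0.26 (unadjusted p 0.147 from limma).

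Of 15 genes of the masked maternal messages on the array, only 10 exceeded background often enough to be tested. Of these 10, 1 was lower, with a median of -0.02. ZP3, a zona pellucida protein, had a fold change of -0.38 (unadjusted p 0.0326, limma), whereas its other tested probe had 0.40. MOS, the kinase of meiotic arrest, had a fold change of 0.29 with ratios of -0.42, -0.08, 0.99 and 0.66, so that its sign changed with the dye (unadjusted p 0.00706 for the dye term, limma). Without array 4 the median of this list was -0.26, and without array 3 it was 0.11. Among 11 heat-induced chaperones, 1 was lower, with a median of -0.02. HSPB1, a small heat shock protein, had ratios of -0.35, -1.13, -0.13 and -0.09 and a fold change of -0.43 (unadjusted p 0.0348, limma), and its other tested probe had -0.54. HSPA4, a relative of HSP70, had a fold change of 0.35 (unadjusted p 0.0956 from limma).

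Markers of the cells of a blastocyst were present in both groups. Of 10 trophectoderm markers on the array, 9 were tested, and all 36 of their readings in either group were above background. Their mean levels were 10.95 to 11.18 in vitrified pools and 10.92 to 11.59 in control pools. Of the 9, 1 was lower at an unadjusted p under 0.05 (TFAP2A, fold change -0.88) and 0 higher, with a median of -0.25. Among all genes, 5.3% were lower and 3.49% higher. The median ratio of the trophectoderm markers was lowest on array 3 (-0.67), as for the cold-inducible and cold shock domain probes. On that array it was also lowest for cumulus cell markers (-0.42), but highest for inner cell mass markers (0.33). Hypoblast markers were lowest on array 2 (-0.39). Of 8 inner cell mass markers, 2 were lower (NANOG, -0.79, and TFCP2L1, -0.40) and 3 higher (SPIC, 0.76, KLF4, 0.58, and PRDM14, 0.42). TFCP2L1 was above background in only 1 vitrified and 3 control pools. The median of the 8 was 0.32, with mean levels of 10.07 to 10.31 in vitrified pools and 9.99 to 10.20 in control pools. Of 6 hypoblast markers on the array, 5 were tested, and 1 was lower (HNF4A, -0.79) and 1 higher (PDGFRA, 0.47). Their mean levels were 10.32 to 10.63 in vitrified pools and 10.28 to 10.67 in control pools. Cumulus cell markers, of which 1 of 6 was lower (FSHR), averaged 7.12 to 7.45 in vitrified pools and 6.93 to 7.41 in control pools. Of 8 cumulus cell markers on the array, only these 6 were tested. Their readings were above background in 21 of 24 cases in vitrified and 19 of 24 in control pools, shares that the selection raises. The part of such differences in the values of CIRBP, CARHSP1 and LIN28 was not tested.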

How the data were processed

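RNA of expanded blastocysts, amplified with T7 polymerase, was hybridised in a dye-swap design to 4 arrays (EmbryoGENE EMBV3) on 1 slide. Arrays of slow-frozen blastocysts were not analysed here. Spot intensity was deposited for both dyes as median signal and, beside it, median local background, not yet subtracted. Normalized log2 ratios (Cy5 over Cy3) were also deposited by the authors. Lowess and quantile steps are named for them, although the values match ratios before any quantile step. They served as an alternative. The genome build behind the probes is not given in the sources used here. Background was subtracted with a floor of 0.5. Ratios were normalized by loess within and quantiles between arrays, and turned to vitrified over control. A reading counted as above background when it exceeded the negative controls' mean by 2 SD, and probes with 4 or more such readings of 8 were fitted with a group difference and a dye term (limma 3.58.1, R 4.3.3). P values were two-sided and adjusted over all tested probes (Benjamini-Hochberg). The number of arrays limits the precision.

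The members and lists were chosen with earlier results of these data known. Every probe of every member was named, along with the genes of each list with the smallest p, and for CIRBP, RBM3 and YBX1 the 3 genes with the highest correlation. Alternatives were leaving out each array, raw signals, normexp (offset 50), omitting or tightening the filter (all 8 readings), centring by the median, skipping the quantile step, omitting the dye term, an intensity trend with robust fit, the authors' ratios and the mean over probes. The limma fit, but not the steps before it, was tested on simulated ratios.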

Additional observations from a re-analysis of the deposited data

Results flagged for a closer look

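In 1 of 48 groups of 4 pools examined (each probe's levels in either group and its ratios), a single pool stood apart by Dixon's ratio, which chance does in about 1 of 20 groups. It was CIRBP EMBV3_09234, whose vitrified pool on array 4 had a level of 6.23, against 6.87 for the nearest of the other vitrified pools. This probe was below background in all 4 vitrified pools and was not tested.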

How the results depend on the processing

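With 4 arrays, 2 residual degrees of freedom were left, and a fit without 1 array gives the array alone in its dye orientation as much weight as the other pair. The ratio of each array pairs its 2 pools, so all fits were paired by array. Of 115 fits of the 13 probes under other settings with all arrays, 107 kept sign and side of the unadjusted threshold, 2 lost it and 6 changed sign. CIRBP EMBV3_06816 kept both in these, and its mean over probes did not pass. The lower probes among the 12 numbered 1 (in place of 2) with no background subtraction and 1 with probes above background in all 8 readings, and 3 with no filter on dim probes, where CSDA EMBV3_11627 was added. The trend and robust fit called 1 probe of the whole array by adjusted p (in place of 0). Signs changed for RBM3 EMBV3_31488 (0.0047) and CARHSP1 EMBV3_38708 (0.0075) with no background subtraction, for YBX1 EMBV3_32599 (0.0192) and LIN28B (0.0583) with no quantile normalization and for the same probes (0.0195 and 0.0588) with the authors' ratios, and for YBX1 as the mean of its probes (0.15). The cause was not tested.

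Leaving out 1 array at a time gave 0 to 5 lower and 0 to 1 higher probes of the 12 at the unadjusted threshold, which 2.05% to 8.1% of all probes passed as lower and 1.83% to 6.8% as higher. Over all probes it gave 17 to 201 lower and 15 to 75 higher at the study's threshold and 3 to 182 by adjusted p, the highest without array 4. The related lists held 2 to 7 lower and 0 to 3 higher genes, and 0 to 1 by adjusted p, against 2.38% to 9.85% of all genes lower and 1.58% to 7.16% higher at the unadjusted threshold. The most lower genes and the highest of these shares came without array 4. Fold changes whose sign changed ranged from -0.61 to 0.0679 (CIRBP EMBV3_23404), -0.80 to 0.0148 (CIRBP EMBV3_26289), -0.22 to 0.0568 (RBM3 EMBV3_26822), -0.17 to 0.14 (YBX1 EMBV3_32599), -0.29 to 0.27 (LIN28B) and -0.0437 to 0.0236 (CARHSP1 EMBV3_38708). The 3 untested probes were above background in at most 2 of 8 readings.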
